A study of Mus musculus with 35 samples.

Results

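The genes that write, copy and erase DNA methylation were followed across 6 tissues of the adult mouse. They were 8 genes taken by symbol from a deposited table of 55356 gene loci: Dnmt1 and Uhrf1, which keep methylation through cell division, Dnmt3a, Dnmt3b and Dnmt3l, which set it down anew, and Tet1, Tet2 and Tet3, which start its removal. The rule that names them uses no measured value, although the set was chosen with earlier results of these data known. RNA-seq was made from total RNA freed of ribosomal RNA, in 29 libraries and 10 groups of one tissue and sex. These groups were female and male brain, cerebellum, heart and colon, the ovary of females and the testis of males, with 3 libraries in each group and 2 in male heart. All mice were adult C57BL/6J, the labels name no other allele, treatment or agent in any group, and they give no age in weeks. Iso-seq, in which full-length cDNA is read from end to end, was run on gonads and on somatic tissues pooled by sex, and it entered here only through the transcript models made from it. The labels number the libraries of a group but do not say whether they came from separate animals, so the P-values below measure the spread between these libraries.

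Methylation of cytosine in CpG pairs helps to keep genes and transposons silent, and it is copied at each cell division: UHRF1 recognises the hemimethylated CpG left behind the replication fork and brings DNMT1, which methylates the daughter strand. DNMT3A and DNMT3B methylate unmarked CpG, and DNMT3L, which has no catalytic activity of its own, stimulates them and is needed for the marks of the germ line, imprints included. TET1, TET2 and TET3 oxidise methylcytosine to hydroxymethylcytosine and beyond, and neurons are known to be rich in both DNMT3A and the oxidised base.

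The 8 genes were counted as 9 loci, because long reads split Dnmt3a into a coding locus on chromosome 12, 3807175 to 3908553, and a downstream locus, 3909842 to 3914441, separated by 1288 bases. The downstream locus has 3 unspliced models in 1 exon and lies wholly inside the last GENCODE exon of Dnmt3a (3907606 to 3914443), within its 3′ untranslated region. Dnmt1 (chromosome 9, 20907206 to 20959788) and Uhrf1 (chromosome 17, 56303373 to 56323487) also had Iso-seq models, 10 and 9 in number. Dnmt3b (chromosome 2, 153649450 to 153687730), Dnmt3l (chromosome 10, 78041947 to 78063622), Tet1 (chromosome 10, 62804570 to 62908996), Tet2 (chromosome 3, 133463679 to 133545139) and Tet3 (chromosome 6, 83362373 to 83459084) kept their ENSEMBL models. All coordinates are on GRCm38.p6. All 9 loci passed the filter on low counts, and over the 29 libraries they held between 483 counts (Dnmt3l) and 42013 counts (Dnmt1). Dnmt3l shares 67 exon bases with Aire and Tet2 shares 43 with Gm42567, both on the opposite strand, and whether counting used strand is not given in the sources used here. Dnmt3b lies beside its close copy Dnmt3c, and as only uniquely mapped reads were kept, reads that fit both copies were lost to both.

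Total counts ranged from 11742417 to 36194255 per library, with a median of 24403774. Of 26 tissue and sex marker genes, 24 were higher in every library of their own label than in any other, the exceptions being Snap25, which brain and cerebellum share, and Amhr2, which testis also expresses. Of 6 oocyte markers, Gdf9 read high in all tissues, with a median of 181 FPKM in heart against 33.6 in ovary, whereas the other 5 were highest in ovary, at medians of 1.15 to 4.58. In 3 libraries the summed level of other cell types stood apart within their tissue. Female heart replicate 3 had a leukocyte sum (4 markers) of 39.7 FPKM against 4.09 to 6.35 in the other heart libraries, and a cardiomyocyte sum of 4045 against 8186 to 9080. Ovary replicate 1 had a sum of epithelial genes (Epcam, Krt20, Lgr5 and Vil1) of 104.7 FPKM against 37.3 and 39.0, most of it Epcam at 80.8 and Lgr5 at 20.4, while Krt20 reached at most 2.44 and Vil1 at most 1.2 in the ovary libraries, and a granulosa cell sum of 44.2 against 63.1 and 86.2. Male colon replicate 1 had a leukocyte sum of 69.2 FPKM against 10.7 to 16.2, and a colon epithelium sum of 794 against 1230 to 1610. These 3 libraries were kept, and results were recomputed without them where this changed a call or a size. In colon, spermatid transcripts were also found in female replicates 1 and 3 and male replicate 3, with sums of 9.82, 6.51 and 5.22 FPKM against at most 0.740 in the other 3.

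Levels are given as FPKM, the counts divided by the library's total and by the length of the union of a locus's exons, which lets genes be compared with each other. At this scale the family had no common pattern (the plot of levels by tissue). Dnmt1 and the coding locus of Dnmt3a were the most abundant members in brain, at 12.1 ± 0.760 and 12.6 ± 1.33 FPKM (SD, n = 6), and in cerebellum, at 11.3 ± 1.08 and 13.9 ± 1.03 (SD, n = 6). In brain, 76.1% and 77.0% of protein-coding loci were lower. Uhrf1 was the most abundant member in testis, at 25.2 ± 0.0839 FPKM (SD, n = 3), above 86.5% of protein-coding loci there. Dnmt3b and Dnmt3l had the lowest means in every tissue except testis, although Dnmt3b and Tet1 in colon (0.545 ± 0.148 and 0.550 ± 0.0582, SD, n = 6) lay within each other's spread, and in testis Tet1 took the lowest place at 0.340 ± 0.0512 FPKM (SD, n = 3). The highest tissue means of Dnmt3b and Dnmt3l were 1.31 and 1.23 FPKM, the latter 2.01 when the longest transcript replaced the union of exons.

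**Figure D1:**
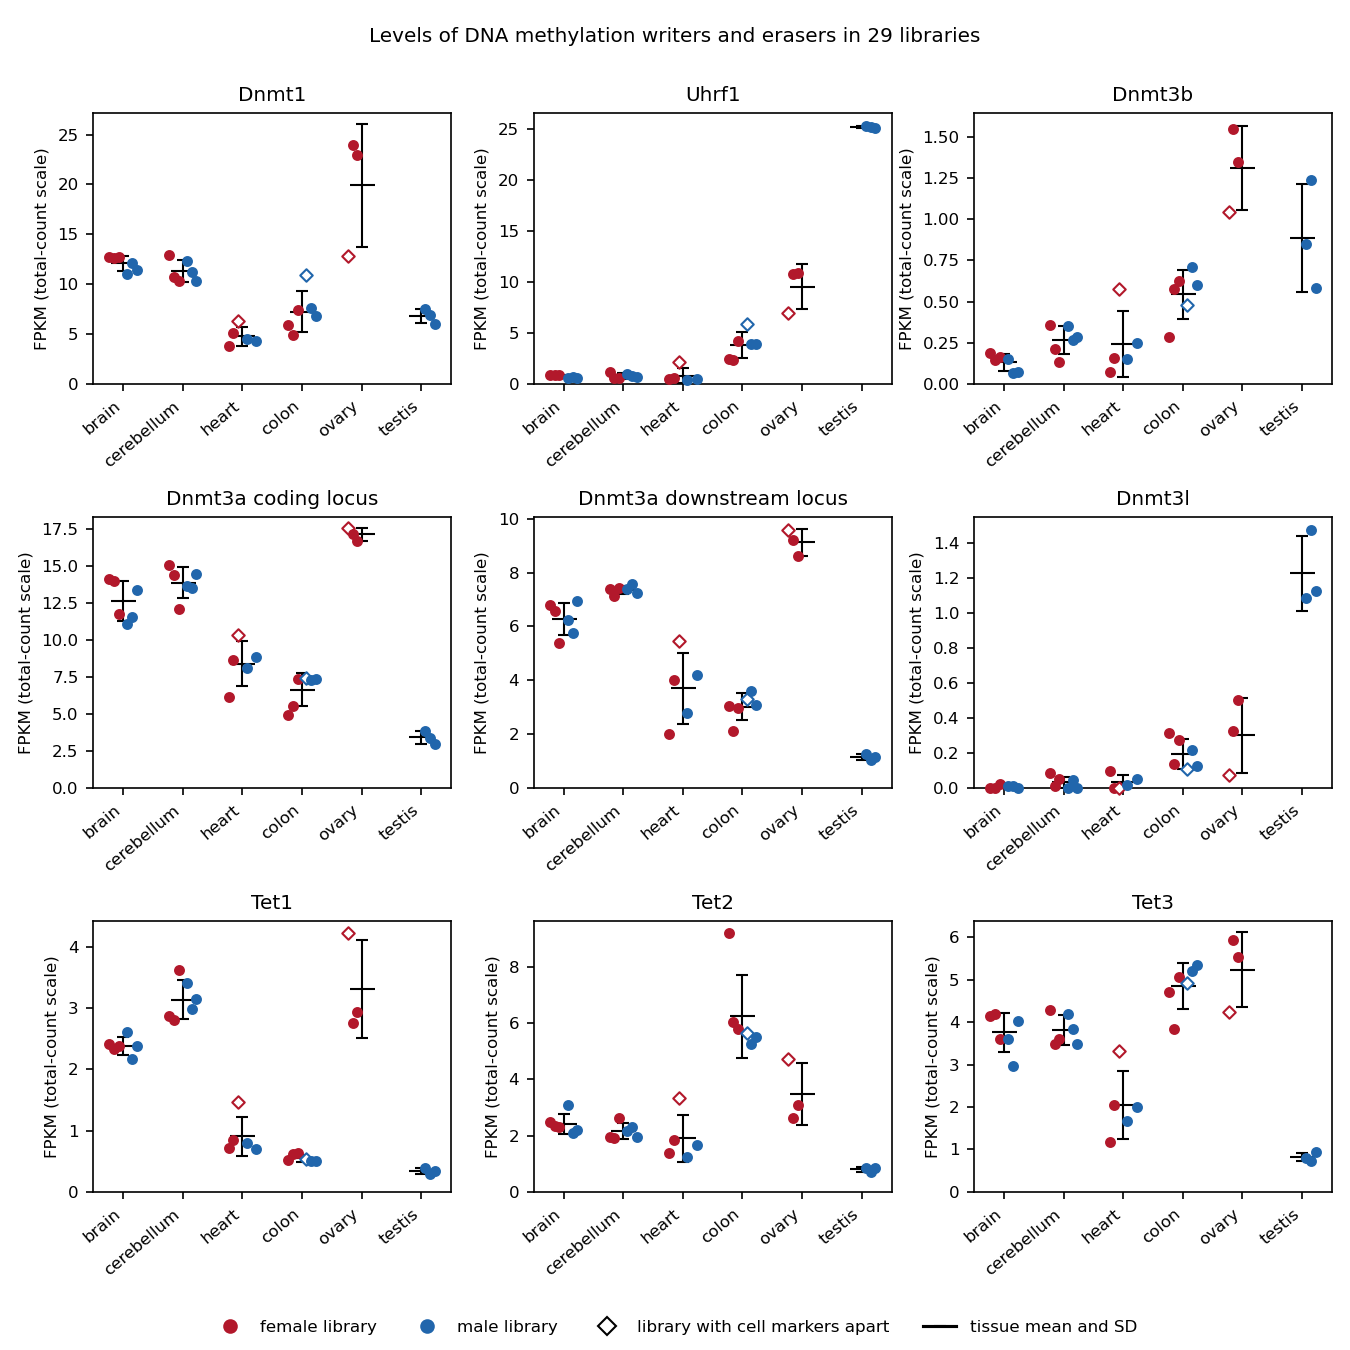
Level of each locus in FPKM (linear axes from 0) in the 29 libraries of 6 tissues, females in red and males in blue, with the tissue mean and SD; open diamonds are the 3 libraries whose cell markers stood apart. Uhrf1 and Dnmt3l peak in testis, Tet2 in colon, and Tet1, Tet2, Tet3 and both Dnmt3a loci are lowest in testis.

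Tau, which runs from 0 for an even level over the 6 tissue means to 1 for a gene of a single tissue, was highest for Dnmt3l (0.908) and Uhrf1 (0.876), and lowest for Tet3 (0.416) and the Dnmt3a coding locus (0.475). Dnmt3b, Tet2, Dnmt1, Tet1 and the Dnmt3a downstream locus lay between, at 0.684, 0.655, 0.575, 0.558 and 0.529. Part of these values depended on how libraries were scaled. TMM scaling, which corrects for unequal shares of the counts taken by abundant transcripts, multiplied the total by 0.604 to 1.12 in heart and by 1.30 to 1.45 in ovary. With TMM-scaled totals, tau fell to 0.268 for the Dnmt3a coding locus, to 0.422 for Dnmt1 and to 0.582 for Dnmt3b. The highest tissue changed from ovary to cerebellum for the Dnmt3a coding locus and Tet1, from ovary to testis for Dnmt3b and from ovary to colon for Tet3. All log2 differences below are on the TMM scale, from edgeR's quasi-likelihood test, with P adjusted after Benjamini and Hochberg across 29911 loci. Testis and ovary were each set against the mean of the 8 somatic groups, so both comparisons share the same 23 somatic libraries. In these bulk libraries, fewer cells of a type and less RNA per cell cannot be told apart.

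Dnmt1, the maintenance methyltransferase, was highest in ovary on both scales. Its level was 12.8, 23.95 and 22.9 FPKM in the 3 ovary libraries, the first being the library with raised Epcam and Lgr5. Brain libraries held 11.0 to 12.8 (median 12.4), those of cerebellum 10.3 to 12.9 (median 11.0) and those of colon 4.93 to 10.9 (median 7.10). In heart it was 3.83, 5.06 and 6.28 in females and 4.47 and 4.299 in males, and in testis 7.52, 6.89 and 6.03. Ovary replicate 1 thus fell among the brain and cerebellum libraries, and the other 2 ovary libraries lay above all libraries of the other tissues. Dnmt1 was higher in ovary than in somatic tissues by 0.82 on the log2 scale (SE 0.14, adjusted P = 2.83e-05), and by 1.11 (SE 0.11) without the 3 libraries whose markers stood apart. Testis overlapped with somatic tissues and did not pass the test, at -0.11 (SE 0.16, adjusted P = 0.582, 95% interval from -0.41 to 0.20), and was lower than ovary, at -0.93 (SE 0.21, adjusted P = 0.000308). Colon was lower than brain, cerebellum and heart, at -0.51 (SE 0.12, adjusted P = 0.000665), a difference that missed the threshold when libraries were scaled by total counts alone (-0.27, adjusted P = 0.0636). In the order of FPKM means (ovary, brain, cerebellum, colon, testis, heart), only cerebellum and colon passed the test between neighbours, at 0.67 (SE 0.15, adjusted P = 0.000215), and for colon and testis the TMM difference ran the other way (-0.28, adjusted P = 0.16).

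Uhrf1, the reader of hemimethylated CpG, followed another order. Its level was 25.3, 25.2 and 25.1 FPKM in testis and 6.94, 10.8 and 10.9 in ovary, and it ran from 2.37 to 5.88 in colon (median 3.93). Brain held 0.620 to 0.920 (median 0.755) and cerebellum 0.537 to 1.21 (median 0.697), while heart had 0.456, 0.561 and 2.15 in females and 0.386 and 0.498 in males. In FPKM, testis, ovary and colon did not overlap with each other or with any other tissue, although ovary replicate 1 fell inside the range of colon on the TMM scale (4.79 against at most 4.81), and the 1 heart library above 1 FPKM was replicate 3 of the females. The differences were 4.70 (SE 0.17, adjusted P = 4.26e-19) for testis and 2.67 (SE 0.19, adjusted P = 6.03e-12) for ovary against somatic tissues, 2.03 (SE 0.31, adjusted P = 2.87e-06) for testis against ovary, and 2.11 (SE 0.18, adjusted P = 3.51e-11) for colon against brain, cerebellum and heart. Among neighbours in the order (testis, ovary, colon, heart, cerebellum, brain), heart, cerebellum and brain overlapped and did not pass the test. Both maintenance genes are needed together for copying methylation, yet their ratio was not constant: log2 of Uhrf1 over Dnmt1 was 1.89 ± 0.16 (SD, n = 3) in testis and between -4.32 and -0.80 in the other 26 libraries. Testis was the only tissue of the 6 in which Uhrf1 exceeded Dnmt1. Its mean ratio differed from the mean of the other 26 libraries, -2.72 (exact permutation test over libraries, two-sided, adjusted P = 0.00205, with an unadjusted 0.000274 being the smallest that 3 against 26 allows). Brain lay at the other end, at -4.01 ± 0.18 (SD, n = 6) against a mean of -1.79 elsewhere (exact permutation test, adjusted P = 0.038), although its libraries overlapped with those of cerebellum (-3.90 ± 0.33, SD, n = 6, adjusted P = 0.0696 by the same exact permutation test). The call for brain was lost (adjusted P = 0.0577) without the 3 libraries that stood apart, and with 13 of the 29 libraries when each was left out by itself, among them the 3 male brain libraries, female heart replicate 3 and every colon and ovary library.

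Both maintenance genes are known to be made by dividing cells, so the summed level of 15 cell cycle genes was set beside them. This sum was 245 to 255 FPKM in testis, 211 to 241 in ovary, 103 to 161 in colon, 24.0 to 58.5 in heart, 32.8 to 42.8 in cerebellum and 29.1 to 33.8 in brain. Uhrf1 and the sum were each lowest in brain, cerebellum and heart and rose in the order colon, ovary, testis. Gene by gene, the step from ovary to testis was mixed. Of the 15 genes, 6 were called higher in testis and 6 lower, with a median log2 difference of -0.36. Over all loci, 37.8% were higher and 26.4% lower. Dnmt1 did not follow the sum: brain and cerebellum, among the tissues with the lowest sums, held more Dnmt1 than testis (the plot against cell cycle genes). Within heart, female replicate 3 was highest for the sum (58.5 against 24.0 to 30.8), for Uhrf1 (2.15 against 0.386 to 0.561) and for Dnmt1 (6.28 against 3.83 to 5.06), and in colon male replicate 1 was highest for all 3 (sum 160.6, Uhrf1 5.88, Dnmt1 10.9). Both are libraries with raised leukocyte markers, and the part of the leukocytes in these levels was not tested.

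**Figure D2:**
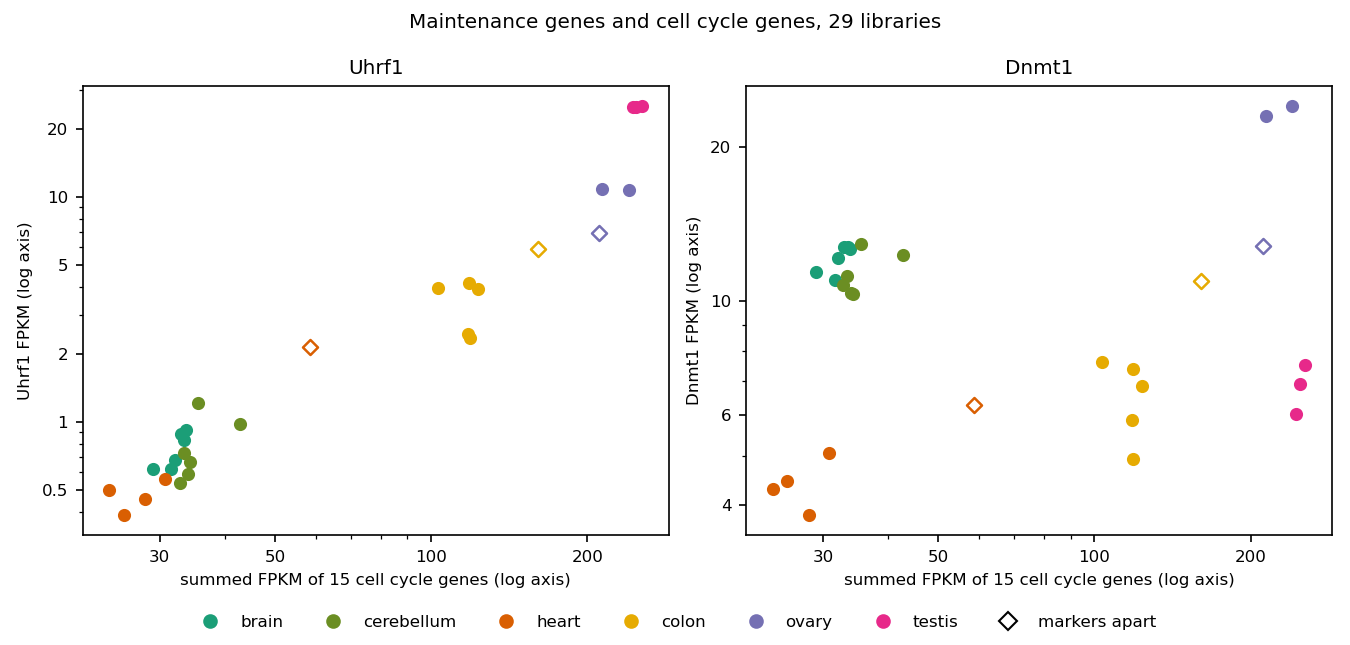
FPKM of Uhrf1 (left) and Dnmt1 (right) against the summed FPKM of 15 cell cycle genes, both on log axes, 1 point per library with tissue by colour; open diamonds are the 3 libraries whose markers stood apart. Uhrf1 climbs from brain, cerebellum and heart through colon and ovary to testis, whereas brain and cerebellum hold 10.3 to 12.9 FPKM of Dnmt1 at sums of 29.1 to 42.8.

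Long reads gave both maintenance genes more than 1 start. Of the 10 Dnmt1 models, 3 had 39 exons, and their 5′ ends lay 100, 135 and 62 bases downstream of the first, the second and the third RefSeq start sites, of which the other two lie 6909 and 7265 bases beyond the first. The other 7 began 11038 to 34300 bases downstream of the third start site, and all 10 ended within 4 bases of each other. Of the 9 Uhrf1 models, 3 began 36 to 103 bases downstream of the first RefSeq start site, 4 between 81 bases upstream and 38 bases downstream of the second, 976 bases further on, and 2 inside the gene. Their 3′ ends fell at 2 places: 3 models ended 774 bases short of the last end, 6 within 2 bases of it, and each end occurred with each start. The deposited models do not record which Iso-seq library gave each one, so no start can be tied to a tissue here.

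**Figure D3:**
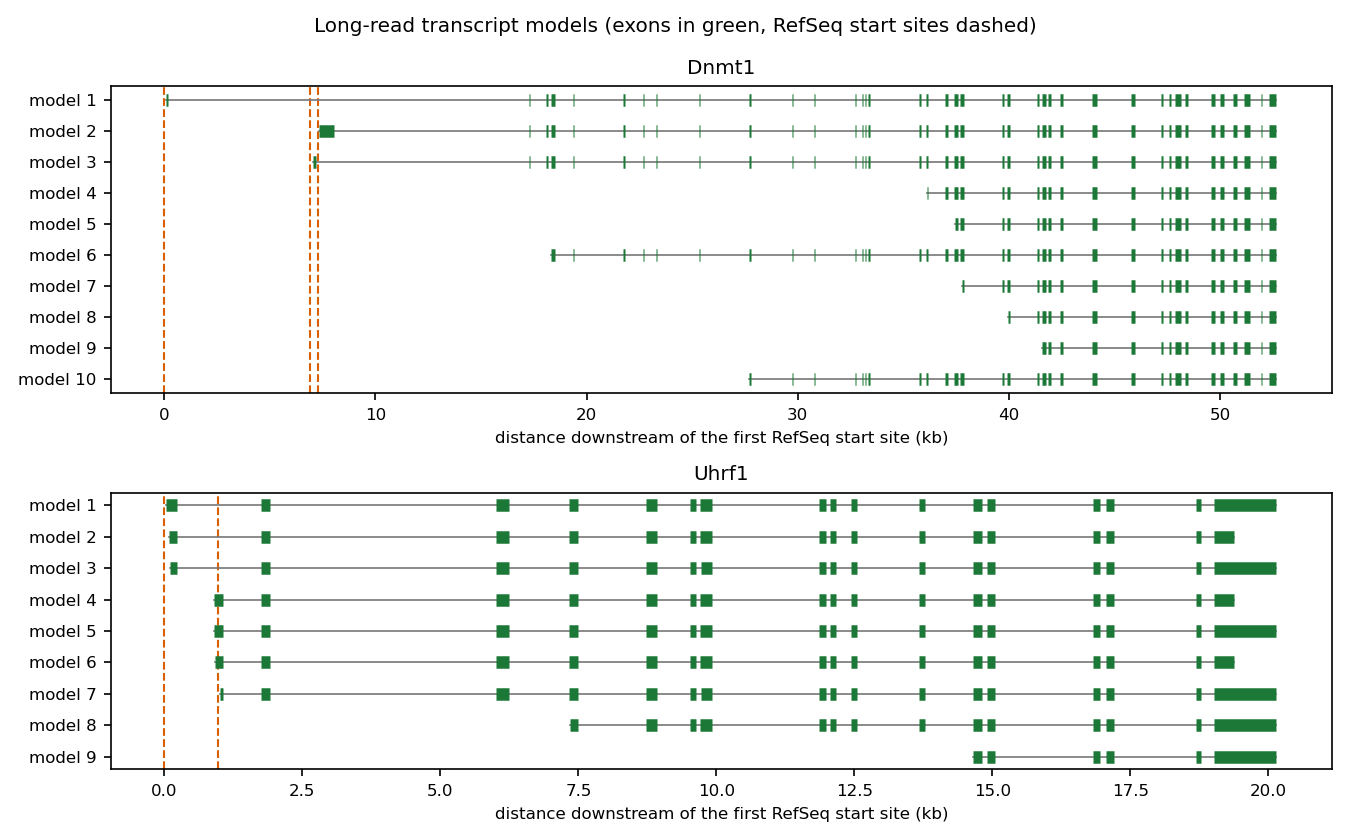
Iso-seq models of Dnmt1 (upper) and Uhrf1 (lower), with exons as green boxes and distance in kb downstream of the first RefSeq start site; dashed lines mark RefSeq start sites. The 3 Dnmt1 models with 39 exons leave from 3 first exons at 3 start sites. Uhrf1 models leave from 2 start sites, except 2 models that begin inside the gene, and end at 2 places.

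The windows at these starts are shown because models of both genes, which act together, begin in or near them, and because the starts of 1 gene differ in CpG content. They are RefSeq promoters on GRCm38.p6, from 250 bases before a start site to 50 after it, written 5′ to 3′ on the gene's strand, with capitals for matches on either strand to the E2F motifs TTTGGCGC, TTTCGCGC and GGCGGGAA. E2F factors are known to drive genes of DNA replication.
The first Dnmt1 start, chr9:20959839-20960138, minus strand: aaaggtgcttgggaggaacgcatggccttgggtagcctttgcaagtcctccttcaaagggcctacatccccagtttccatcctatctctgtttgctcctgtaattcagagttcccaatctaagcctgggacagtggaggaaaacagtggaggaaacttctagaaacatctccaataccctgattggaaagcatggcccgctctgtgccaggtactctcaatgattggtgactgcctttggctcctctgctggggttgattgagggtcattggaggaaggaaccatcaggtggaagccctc
The second Dnmt1 start, chr9:20952930-20953229, minus strand: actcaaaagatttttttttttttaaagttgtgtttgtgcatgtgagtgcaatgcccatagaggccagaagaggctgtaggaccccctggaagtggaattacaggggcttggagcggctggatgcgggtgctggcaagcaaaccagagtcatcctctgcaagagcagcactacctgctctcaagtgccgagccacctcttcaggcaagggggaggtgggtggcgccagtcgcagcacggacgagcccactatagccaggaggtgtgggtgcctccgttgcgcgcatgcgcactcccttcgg
The third Dnmt1 start, chr9:20952574-20952873, minus strand: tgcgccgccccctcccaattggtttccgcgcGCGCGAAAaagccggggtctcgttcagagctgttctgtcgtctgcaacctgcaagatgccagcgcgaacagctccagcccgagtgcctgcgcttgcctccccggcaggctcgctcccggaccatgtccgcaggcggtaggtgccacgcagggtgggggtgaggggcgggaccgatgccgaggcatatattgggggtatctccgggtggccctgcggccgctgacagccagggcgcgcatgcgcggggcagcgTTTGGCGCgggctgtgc
The first Uhrf1 start, chr17:56303087-56303386, plus strand: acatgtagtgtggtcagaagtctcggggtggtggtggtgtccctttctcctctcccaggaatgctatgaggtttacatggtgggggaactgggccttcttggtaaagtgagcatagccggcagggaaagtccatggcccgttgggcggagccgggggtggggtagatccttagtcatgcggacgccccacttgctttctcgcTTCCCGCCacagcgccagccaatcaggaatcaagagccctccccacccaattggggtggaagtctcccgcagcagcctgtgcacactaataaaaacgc
The second Uhrf1 start, chr17:56304063-56304362, plus strand: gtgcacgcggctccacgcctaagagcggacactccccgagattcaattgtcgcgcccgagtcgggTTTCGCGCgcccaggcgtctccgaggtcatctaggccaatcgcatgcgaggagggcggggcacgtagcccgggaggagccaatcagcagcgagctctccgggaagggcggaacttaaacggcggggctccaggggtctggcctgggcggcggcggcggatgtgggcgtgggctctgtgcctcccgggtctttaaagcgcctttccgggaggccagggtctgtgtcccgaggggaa
The first Dnmt1 window holds 2 CpG, fewer than most of the 32851 RefSeq windows (14.1% have fewer, and the median is 7), and the third holds 33, as does the second Uhrf1 window (91.4% of windows have fewer). The second Dnmt1 window and the first of Uhrf1 hold 12 each. TTTGGCGC or TTTCGCGC occurs in both CpG-rich windows, from bases -219 and 33 of the third Dnmt1 start and from base -185 of the second Uhrf1 start, against 0.813% of all windows. GGCGGGAA occurs once, from base -48 of the first Uhrf1 start, against 2.19% of all windows. Among all 15 windows of the 8 genes, no other held an E2F motif, and 2 held the E-box CACGTG (the third of Dnmt3a and the second of Dnmt3l, against 7.15% of all windows). The motifs were chosen after levels had been seen, and a match or its absence in a window describes only these letters.

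Windows of the remaining genes differed as much in CpG. Tet2 had 57 CpG, more than 99.8% of windows, the first and second Dnmt3a windows had 46 and 47, Dnmt3b 30, Tet3 22 and Tet1 17. The 3 windows of Dnmt3l held 6, 4 and 3, below or near the median. With 8 genes, no relation between CpG and level was tested.

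Dnmt3a, the main de novo methyltransferase of adult tissues, was high in ovary and neural tissue and low in testis at both loci. The coding locus was at 17.6, 17.1 and 16.7 FPKM in ovary, 12.1 to 15.05 in cerebellum (median 14.0) and 11.1 to 14.1 in brain (median 12.6). Heart had 6.12, 8.62 and 10.3 in females and 8.12 and 8.83 in males, colon 4.93 to 7.41 (median 7.30), and testis 3.86, 3.39 and 2.99. All 3 testis libraries were below every other library, and in FPKM all 3 ovary libraries were above. Testis was lower than somatic tissues by a log2 difference of -1.38 (SE 0.14, adjusted P = 9.13e-10) and than ovary by -1.69 (SE 0.17, adjusted P = 1.39e-09), and colon lower than brain, cerebellum and heart by -1.02 (SE 0.10, adjusted P = 9.03e-10). For ovary the difference was small, 0.31 (SE 0.12, adjusted P = 0.0336). It missed the threshold without any single ovary library (0.35, 0.29 and 0.31, adjusted P = 0.0534, 0.127 and 0.103), without male heart replicate 1 (0.30, adjusted P = 0.0541) and with RLE size factors (0.26, adjusted P = 0.0659), and on the TMM scale the ovary libraries overlapped with cerebellum, from which ovary differed by -0.00083 (SE 0.14, adjusted P = 1). Brain and heart did not overlap in FPKM, but their difference on the TMM scale did not pass (0.16, SE 0.12, adjusted P = 0.262), nor did that of cerebellum and brain.

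The downstream locus of Dnmt3a gave 9.59, 9.21 and 8.60 FPKM in ovary, 7.13 to 7.59 in cerebellum, 5.38 to 6.94 in brain, 2.02 to 5.45 in heart, 2.10 to 3.61 in colon and 1.26, 1.02 and 1.17 in testis. It followed the coding locus in its order of tissues. The ratio of both loci had unlike tissue means, a difference that was not tested. The downstream locus stood at 49.8 ± 3.80%, 53.3 ± 4.81%, 42.9 ± 8.75%, 46.0 ± 8.64% and 53.3 ± 1.57% of the coding locus per length in brain (n = 6), cerebellum (n = 6), heart (n = 5), colon (n = 6) and ovary (n = 3), and at 33.9 ± 4.61% in testis (n = 3, all SD). Testis libraries ran from 30.04% to 39.0%, and the lowest heart and colon libraries were within that range, at 33.0% and 37.9%. Against somatic tissues, the downstream locus was lower in testis by -1.87 (SE 0.16, adjusted P = 4.99e-11) and higher in ovary by 0.48 (SE 0.13, adjusted P = 0.00346). On the TMM scale ovary (6.625 to 7.109) overlapped with cerebellum (6.5 to 6.969) and brain (5.344 to 7.277). Its difference from cerebellum was 0.0089 (SE 0.15) and did not pass.

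Dnmt3b, the de novo enzyme known from the early embryo, was low throughout and highest in the gonads. Ovary had 1.04, 1.55 and 1.35 FPKM and testis 0.846, 1.24 and 0.579. Colon ran from 0.284 to 0.708 (median 0.588), cerebellum from 0.130 to 0.357 (median 0.276) and brain from 0.0649 to 0.190 (median 0.148), and heart had 0.0725, 0.156 and 0.579 in females and 0.15 and 0.247 in males. These levels rested on 9 to 197 counts per library. The testis libraries overlapped with colon in FPKM, and the lowest of them, 0.5794, lay just above female heart replicate 3 at 0.5791, while on the TMM scale all 3 were above the 23 somatic libraries (0.678 to 1.44 against at most 0.639). Both gonads were higher than somatic tissues, testis by 1.98 (SE 0.29, adjusted P = 6.49e-07) and ovary by 1.92 (SE 0.29, adjusted P = 2.83e-06), and they differed from each other by 0.06 (SE 0.43, adjusted P = 0.923), with a 95% interval from -0.78 to 0.90. Colon was higher than brain, cerebellum and heart by 1.27 (SE 0.26, adjusted P = 0.000111).

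Dnmt3l, the germ line cofactor, was a testis transcript with a lesser level in colon and in 2 of the 3 ovary libraries. Testis held 1.08, 1.47 and 1.12 FPKM from 92, 136 and 103 counts, and ovary 0.0742, 0.323 and 0.501 from 4, 24 and 42 counts. Colon ran from 0.106 to 0.314 FPKM (median 0.175), on 5 to 12 counts. In the 17 libraries of brain, cerebellum and heart it reached at most 0.0963 FPKM, on 0 to 7 counts (0 in 7 of the 17), and female heart replicate 1 gave that highest value. All testis libraries were above all others. In FPKM, ovary replicate 1 lay below all colon libraries and inside the range of brain, cerebellum and heart. The other 2 ovary libraries lay above all of colon in FPKM. On the TMM scale the middle ovary library (0.249) fell inside the range of colon (0.087 to 0.286). Ovary and colon did not pass edgeR's test (0.43, SE 0.69, adjusted P = 0.682). Dnmt3l was higher than in somatic tissues by 5.21 (SE 0.48, adjusted P = 1.97e-10) in testis and 2.61 (SE 0.57, adjusted P = 0.000409) in ovary, higher in testis than in ovary by 2.61 (SE 0.78, adjusted P = 0.00485), and higher in colon than in the other somatic tissues by 2.91 (SE 0.57, adjusted P = 6.30e-05). The sizes depended on single libraries. Without female heart replicate 1 the values for testis, ovary and colon were 5.80, 3.20 and 3.70, and without ovary replicate 3 they were 2.01 for ovary against somatic tissues (adjusted P = 0.0252) and 3.20 for testis against ovary (adjusted P = 0.00517). The call for testis against ovary was lost when replicate number was added to the model, as given in the closing sections. Colon libraries with spermatid transcripts (female replicates 1 and 3, male replicate 3) had 0.314, 0.273 and 0.126 FPKM of Dnmt3l, and the other 3 had 0.137, 0.106 and 0.214, on 5 to 12 counts each. The part of the spermatid transcripts in these levels was not tested.

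As a share of Dnmt3a plus Dnmt3b, with both Dnmt3a loci counted over their joint length, Dnmt3a took 98.6 ± 0.550% in brain (SD, n = 6), 97.5 ± 0.737% in cerebellum (SD, n = 6), 96.4 ± 2.05% in heart (SD, n = 5), 89.6 ± 2.44% in colon (SD, n = 6), 90.65 ± 1.81% in ovary (SD, n = 3) and 71.5 ± 7.66% in testis (SD, n = 3). The testis values of 62.9%, 74.2% and 77.4% were below all other libraries, of which the lowest was 86.4% (exact permutation test, two-sided, adjusted P = 0.00205). Against somatic tissues, testis had both the lower level of Dnmt3a and the higher level of Dnmt3b.

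Tet1, whose protein carries a CpG-binding CXXC domain, was a transcript of ovary and neural tissue. It stood at 4.23, 2.77 and 2.94 FPKM in ovary, 2.80 to 3.63 in cerebellum (median 3.07) and 2.18 to 2.62 in brain (median 2.38). Heart had 0.710, 0.849 and 1.48 in females and 0.803 and 0.693 in males, colon 0.499 to 0.628 (median 0.528), and testis 0.389, 0.287 and 0.345. Cerebellum, brain, heart, colon and testis did not overlap with each other in FPKM, and ovary overlapped with cerebellum only. On the TMM scale the highest testis library (0.445) lay above the lowest of colon (0.440). Ovary there (2.13 to 2.92) overlapped with brain as well as with cerebellum. Testis was lower than somatic tissues by -1.84 (SE 0.13, adjusted P = 1.47e-12) and than ovary by -2.63 (SE 0.16, adjusted P = 1.12e-13), colon was lower than brain, cerebellum and heart by -1.99 (SE 0.10, adjusted P = 8.82e-16), and ovary was higher than somatic tissues by 0.79 (SE 0.10, adjusted P = 5.40e-07). Neither ovary and cerebellum (-0.24, SE 0.13, adjusted P = 0.127) nor cerebellum and brain (0.26, SE 0.10, adjusted P = 0.0663) passed the test, although all 6 brain libraries lay below all 6 of cerebellum in FPKM and on the TMM scale (2.30 to 2.55 against 2.57 to 3.18).

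Tet2, which lacks a CXXC domain of its own and is known as a tumour suppressor of blood cells, was highest in colon. Colon libraries ran from 5.26 to 9.21 FPKM (median 5.72), ovary had 4.72, 2.63 and 3.09, brain 2.08 to 3.10 (median 2.32), cerebellum 1.93 to 2.63 (median 2.07), heart 1.40, 1.84 and 3.34 in females and 1.25 and 1.68 in males, and testis 0.837, 0.713 and 0.860. No colon library overlapped with any other tissue, and no testis library did. Colon was higher than brain, cerebellum and heart by 1.33 (SE 0.10, adjusted P = 4.06e-12), and testis was lower than somatic tissues by -1.60 (SE 0.16, adjusted P = 6.90e-10) and than ovary by -1.46 (SE 0.19, adjusted P = 1.51e-07). For ovary against somatic tissues the difference of -0.15 (SE 0.14, adjusted P = 0.463) did not pass. Leukocytes are known to express Tet2, and Tet2 was 5.64 FPKM in male colon replicate 1 (leukocyte sum 69.2 FPKM) and 9.21 in female replicate 1 (leukocyte sum 14.7), and in heart it was highest, at 3.34, in female replicate 3 (leukocyte sum 39.7). The part of leukocytes in these levels was not tested.

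Tet3, the form known for its role in the fertilised egg, varied least of the 3. It was at 4.25, 5.93 and 5.53 FPKM in ovary, 3.84 to 5.35 in colon (median 4.99), 3.48 to 4.29 in cerebellum (median 3.73), 2.97 to 4.19 in brain (median 3.82), 1.17, 2.05 and 3.33 in female and 1.68 and 2.001 in male heart, and 0.808, 0.728 and 0.931 in testis. Only testis stood clear of all other libraries. It was lower than somatic tissues by -1.89 (SE 0.16, adjusted P = 4.06e-11) and than ovary by -2.04 (SE 0.19, adjusted P = 4.29e-10), and colon was higher than brain, cerebellum and heart by 0.44 (SE 0.10, adjusted P = 0.000562). Ovary differed from somatic tissues by 0.16 (SE 0.13, adjusted P = 0.405), a value that passed with total counts alone (0.61, adjusted P = 0.00274) and without the 3 libraries that stood apart (0.34, adjusted P = 0.0477).

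The sum of the 3 Tet genes was 12.0 ± 1.02 FPKM in ovary (SD, n = 3), 11.6 ± 1.41 in colon (SD, n = 6), 9.12 ± 0.646 in cerebellum (SD, n = 6), 8.56 ± 0.739 in brain (SD, n = 6), 4.85 ± 1.93 in heart (SD, n = 5) and 1.97 ± 0.212 in testis (SD, n = 3). These levels rest on the union of exons, which is longer than the longest transcript for Tet2 (16870 against 9179 bases) and Tet3 (16695 against 10904 bases). On the latter length the colon means were 11.5 FPKM for Tet2 and 7.43 for Tet3, and the ovary mean of Tet3 was 8.02. What filled the sum changed with tissue. Tet1 took 4.79 ± 0.814% in colon (SD, n = 6) and 15.9% to 36.8% in every other library, whereas Tet2 took 53.2 ± 6.23% in colon (SD, n = 6) and 21.6% to 42.7% elsewhere (both exact permutation test, two-sided, adjusted P = 3.16e-05). Cerebellum was the reverse, with 34.4 ± 2.15% for Tet1 (SD, n = 6, against a mean of 18.5%, exact permutation test, adjusted P = 0.00336) and 23.7 ± 1.94% for Tet2 (SD, n = 6, against 38.7%, exact permutation test, adjusted P = 0.0134), although its libraries overlapped with others. The share of Tet3 had tissue means between 41.8% and 44.1%. Single libraries spread more widely, at 44.1 ± 10.6% in ovary (SD, n = 3, 32.2% to 52.4%) and 42.0 ± 6.06% in colon (SD, n = 6, 32.6% to 47.5%). None of its 6 comparisons passed, with adjusted P from 0.638 to 0.806 by the same exact permutation test. Testis, with the lowest sum, had shares of 17.3 ± 1.596% (Tet1), 40.9 ± 0.557% (Tet2) and 41.8 ± 1.95% (Tet3; SD, n = 3), none of which passed against the other libraries. Of 30 such comparisons of shares and ratios, 7 passed.

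**Figure D4:**
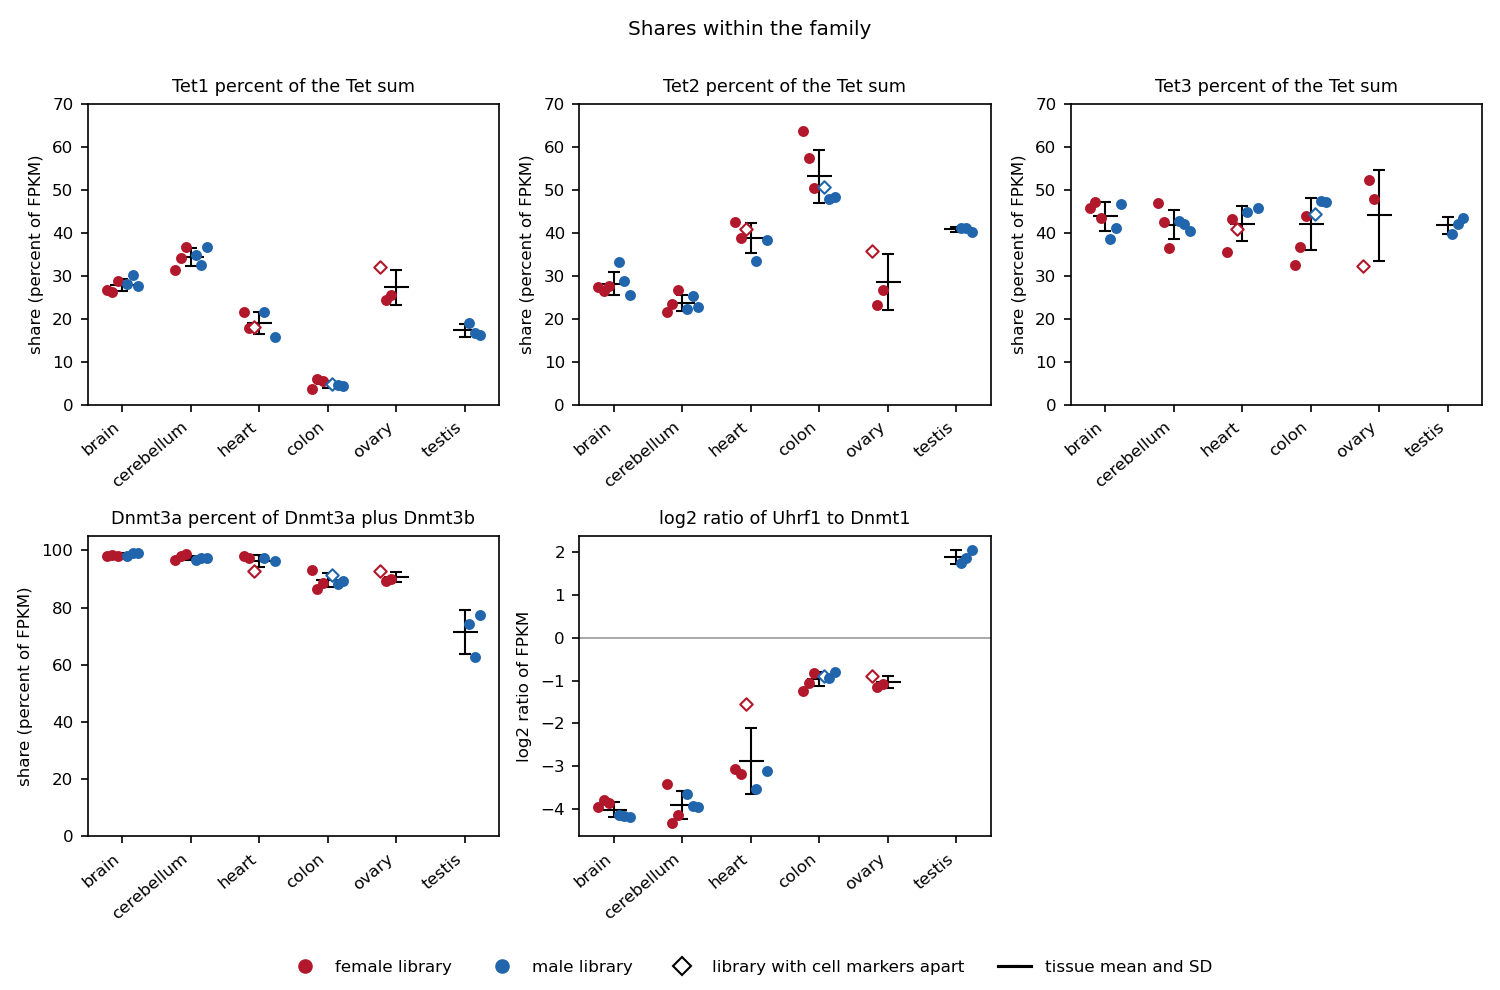
Shares in percent of FPKM (Tet1, Tet2 and Tet3 of their sum, Dnmt3a of Dnmt3a plus Dnmt3b) and the log2 ratio of Uhrf1 to Dnmt1, 1 point per library with tissue mean and SD; open diamonds are the 3 libraries whose markers stood apart. Colon stands apart for Tet1 and Tet2, testis for Dnmt3a and for the ratio, and for Tet3 the tissue means lie between 41.8% and 44.1% while single libraries run from 32.2% to 52.4%.

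Set side by side, the comparisons showed opposite balances in the gonads. In testis against somatic tissues, 3 loci were called higher (Uhrf1, Dnmt3l and Dnmt3b) and 5 lower (both Dnmt3a loci and the 3 Tet genes), where 40.6% and 26.6% of all loci tested were called higher and lower. In ovary against the same somatic libraries, 7 loci were called higher (all but Tet2 and Tet3) and 0 lower, against 23.9% and 18.9% of all loci. Tested directly, testis was higher than ovary at 2 loci (Dnmt3l and Uhrf1) and lower at 6 (all except Dnmt3b), against 37.8% and 26.4%. The median log2 difference of the 9 loci was -1.38 in testis, 0.79 in ovary and -1.46 between them, beside medians of 0.12, 0.00 and 0.15 over all loci. Scaling by total counts alone moved the median of all loci to -0.05, 0.39 and -0.38 and the share of calls that were higher from 55.8% to 77.4% for ovary and from 58.8% to 44.1% for testis against ovary, but left the counts of member loci at 3 higher and 5 lower in testis and 2 higher and 6 lower between the gonads, and made it 8 higher and 0 lower in ovary. Testis and ovary hold many cell types besides germ cells. Spermatid genes (Prm1, Tnp1, Acrv1 and Spaca1) summed to 8450 to 9410 FPKM in testis, spermatocyte genes to 394 to 457, and the 6 spermatogonial genes to 37.3 to 44.4. The last sum was higher in brain (273 to 380) and cerebellum (77.8 to 225), where Uchl1, Zbtb16 and Gfra1 of that list are also expressed. It therefore does not single out testis. In ovary, granulosa genes summed to 44.2 to 86.2 FPKM. The oocyte genes, Gdf9 among them, summed to 29.5 to 57.4 in ovary, 39.5 to 65.4 in colon and 127 to 241 in heart. This sum does not single out ovary, although the oocyte genes other than Gdf9 were highest there, as given above. The part of these cell types in the member levels was not tested.

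**Figure D5:**
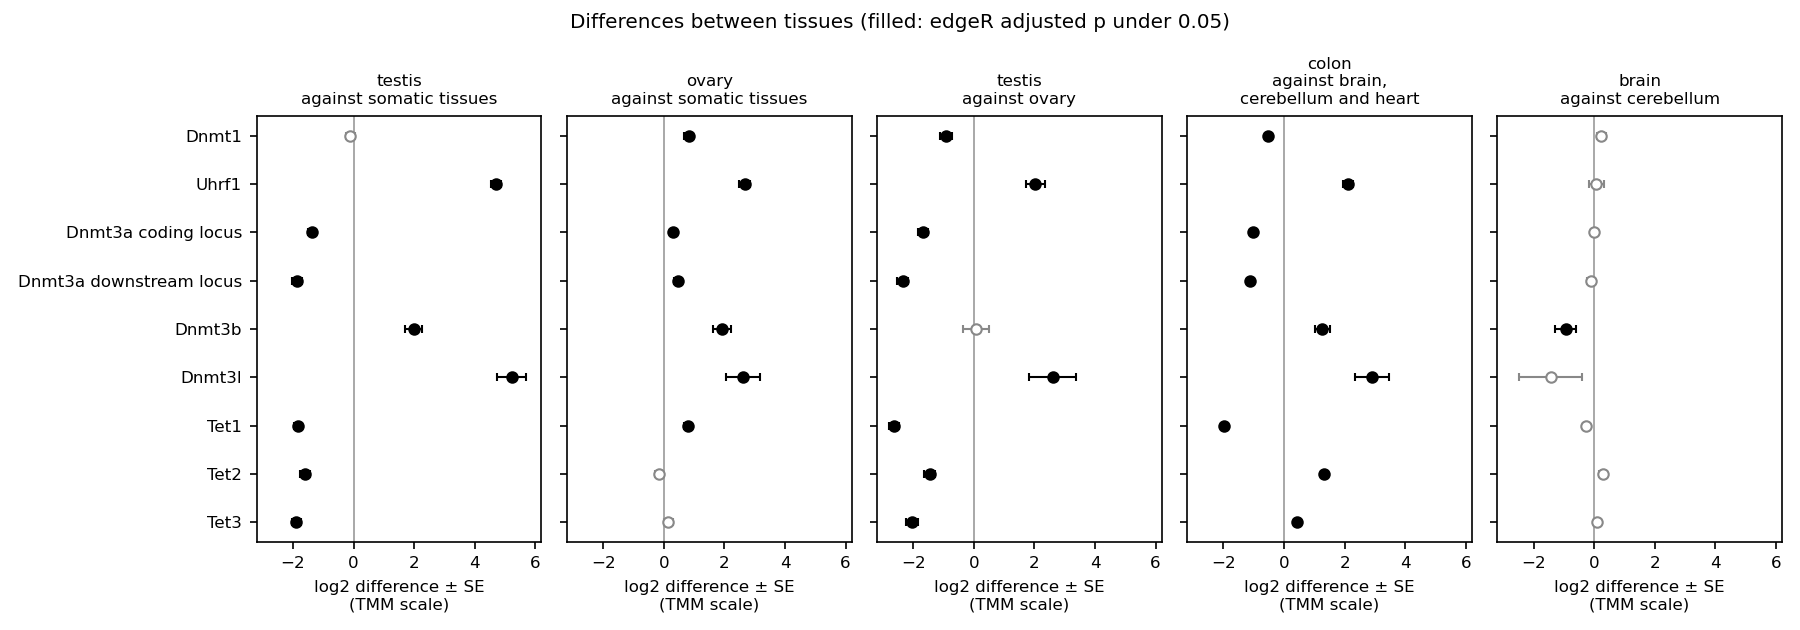
Log2 difference with its SE (TMM scale, edgeR) of each locus in 5 comparisons, filled where the adjusted P was under 0.05. Uhrf1 and Dnmt3l lie far to the right for testis at 4.70 and 5.21, the Tet genes and Dnmt3a lie to the left, and brain against cerebellum shows 1 filled point, Dnmt3b.

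Colon, whose epithelium renews throughout life, divided the family against brain, cerebellum and heart: 5 loci were called higher (Dnmt3l, Uhrf1, Tet2, Dnmt3b and Tet3) and 4 lower (Tet1, both Dnmt3a loci and Dnmt1), where 30.5% of all loci were higher and 31.5% lower. Between brain and cerebellum, only Dnmt3b was called, lower in brain by -0.94 (SE 0.34, adjusted P = 0.0426), against 15.2% of loci called higher and 10.7% lower, and all 6 brain libraries lay below 5 of the 6 cerebellum libraries, the exception being female cerebellum replicate 3. That call rested on 9 to 44 counts per library and was lost without any 1 of 10 of the 12 libraries (all except male brain replicate 1 and female cerebellum replicate 3), with values from -0.71 to -0.99 and adjusted P from 0.0526 to 0.158. Tet1, lower in brain by -0.26 (SE 0.10, adjusted P = 0.0663), had brain libraries all below those of cerebellum and passed beside Dnmt3b under 5 other settings, DESeq2 among them (-0.30, adjusted P = 0.00825). Scaling by total counts alone changed the share of higher calls over all loci in this comparison from 58.7% to 44.8%.

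Between all 15 pairs of the 6 tissues, Uhrf1, Tet1, Dnmt3b and the Dnmt3a downstream locus differed in 12 pairs each, Dnmt3l in 11, Tet2 and Tet3 in 10, and Dnmt1 and the Dnmt3a coding locus in 9. These counts are to be read against the shares of all loci called in the same pairs, given next. By pair, testis differed from brain at 9 of the 9 loci (against 71.4% of all loci tested), and at 8 from cerebellum (71.0%), heart (67.4%), colon (71.7%) and ovary (37.8% higher and 26.4% lower in testis). Colon differed from brain at 8 (68.3%), from cerebellum at 9 (66.0%), from heart at 7 (53.7%) and from ovary at 7 (47.8%). Ovary differed from heart at 7 (43.9%), from cerebellum at 5 (53.4%) and from brain at 3 loci (56.7%), those being the pairs of ovary with the fewest. Heart differed from brain at 5 (58.6%) and from cerebellum at 4 (57.2%). Brain differed from cerebellum at 1 (15.2% of all loci higher and 10.7% lower in brain).

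No member was called between the sexes. Over brain, cerebellum, heart and colon together, edgeR called 0 of 9 loci, with 0 at an unadjusted P under 0.05 and 0 by DESeq2, and the lowest adjusted P was 0.584 (Tet2, -0.17, SE 0.09). In all genes, 0.104% of loci were called. Within single tissues, edgeR called 0 member loci in brain (0.0368% of all loci), cerebellum (0.0301%), heart (0.0669%) and colon (0.328%), and 0 for the interaction of sex and tissue (0.0167%). These shares are those of edgeR. DESeq2 also called 0 member loci in each. Its calls over all loci were more, at 260 against 31 for sex over the 4 tissues and 160 against 5 for the interaction. At an unadjusted P under 0.05 there were 0, 0, 1, 2 and 0 loci: Uhrf1 in heart (lower in males by -0.88, SE 0.40, adjusted P = 0.492), and Tet2 (-0.50, SE 0.18, adjusted P = 0.355) and Tet1 (-0.36, SE 0.16, adjusted P = 0.507) in colon. The value for Uhrf1 in heart rested on female replicate 3, and was -0.27 (adjusted P = 1) without the 3 libraries that stood apart.

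Genes that act with the members were taken from 8 lists, whose counts are given with the median log2 difference in testis against somatic tissues (0.12 over all loci). Of 8 partners of replication-coupled maintenance, 5 were higher in testis and 1 lower (median 1.10). Hells, a chromatin remodeller needed for methylation of repeats, was at 28.3 to 44.2 CPM in testis against 0.512 to 15.5 in somatic libraries (log2 difference 3.39, SE 0.20), and Dmap1, a DNMT1-binding protein, rose by 1.55 (SE 0.15). Uhrf2, the paralog of Uhrf1 that does not replace it in maintenance, fell, with 23.2 to 25.2 CPM against 30.8 to 70.5 (-0.9991, SE 0.10), so the paralogs moved in opposite directions in testis. Of 12 partners of germline methylation and its protection, 7 were higher and 3 lower (median 2.16). Spocd1 and Morc1, which guide methylation to young transposons in male germ cells, reached 6.24 to 6.48 and 9.77 to 11.1 CPM in testis and at most 0.43 and 0.427 in any somatic library. Nsd1 and Zfp445 were lower, by -1.11 (SE 0.15) and -0.61 (SE 0.13). The list counts are to be read against the shares of all loci called, which were 40.6% higher and 26.6% lower in testis, 23.9% and 18.9% in ovary, 37.8% and 26.4% between the gonads, and 30.5% and 31.5% in colon. Genes named from these lists had an adjusted P under 0.05 by edgeR's quasi-likelihood test and libraries that did not overlap between the groups compared.

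In readers of methylated CpG, testis was higher at 2 of 10 and lower at 5 (median -0.37). Zbtb4 fell by 2.07 on the log2 scale (SE 0.16) in testis, and Mbd4, a glycosylase for mismatches at CpG, was higher by 1.40 (SE 0.20). The 13 genes for removal of oxidised methylcytosine divided evenly, with 6 higher and 6 lower (median -0.21). The ligase gene Lig3 reached 357.6 to 374.4 CPM in testis against 25.1 to 56.4 (3.51, SE 0.09) and Neil3 rose by 3.87 (SE 0.28), while Neil1 (-1.94, SE 0.29) and Smug1 (-1.29, SE 0.17) were lower. Of 9 genes for TET cofactors and partners, 3 were higher and 5 lower (median -0.51), with Ogt, whose product binds TET proteins, at -1.17 (SE 0.13). Of 12 genes of methyl donor metabolism, 6 were higher and 4 lower (median 0.44). Bhmt, which remethylates homocysteine, stood at 280.6 to 689.6 CPM in testis and at most 1.40 in somatic libraries.

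The 12 germline genes known to be silenced in the soma by promoter methylation were all called higher in testis (median 11.3), with Tuba3a at 1040 to 1194 CPM in testis and at most 2.72 in somatic libraries and Rpl10l at 127.7 to 133.4 against at most 0.233. Tuba3a has a near-identical gene copy and Rpl10l a near-identical parent gene, which leaves their counts less certain. Against ovary all 12 were again higher. Tex101 and Hormad1 had no counts in any ovary library and 90.5 to 116.0 and 55.1 to 88.3 CPM in testis, at least 3150-fold and 2242-fold higher than the floor of 3 counts over the ovary group. In ovary against somatic tissues 8 of these 12 were called higher and 1 lower (median 2.08, or 3.01 over the 10 that were not at or under the floor of 3 counts in both groups), led by Asz1 at 0.230 to 0.412 CPM and Stk31 at 0.372 to 0.934, both low. Of 15 cell cycle genes, 12 were higher in testis (median 1.499), 15 in ovary (median 1.99) and 12 in colon against brain, cerebellum and heart (median 1.66), and 0 were lower in any of these comparisons. In testis against ovary, 6 were higher and 6 lower (median -0.36).

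In ovary, the same lists gave 5 of 8 maintenance partners higher and 0 lower, led by Cdca7, which recruits HELLS to chromatin (29.1 to 34.0 CPM against 1.25 to 23.9, difference 2.66, SE 0.14), and 8 of 12 germline partners higher and 0 lower, led by Dppa3, the factor that shields the egg's methylation (4.75 to 7.08 CPM against at most 0.699). Dnmt3c, the rodent copy of Dnmt3b that methylates transposons in male germ cells, was at 1.29 to 1.89 CPM in testis and 0.0275 to 0.0620 in ovary (5.08, SE 1.02), while Dnmt3b itself was not called between them. Readers were mostly not called in ovary (0 higher, 2 lower, 8 not called). Over all loci, 23.9% were called higher and 18.9% lower in ovary. Removal genes were higher at 8 of 13 and lower at 1, cofactor genes higher at 4 of 9 and lower at 1, with Idh1 at 422 to 550.2 CPM against 55.9 to 228.3, and donor genes higher at 5 and lower at 5 of 12. In colon against brain, cerebellum and heart, 7 of 9 cofactor genes were lower and 1 higher, where 31.5% of all loci were lower and 30.5% higher. Lowest against the other tissues were Cxxc4 (-3.62, SE 0.19) and Cxxc5 (-2.93, SE 0.13), whose CXXC proteins bind TET2. Readers were higher at 4 of 10 and lower at 6, donor genes higher at 5 and lower at 5 of 12, with Ahcy, which clears the product of methylation, at 147.0 to 301.4 CPM against 21.3 to 40.6, removal genes higher at 2 and lower at 5 of 13, maintenance partners higher at 5 and lower at 1 of 8, and germline partners higher at 4 and lower at 3 of 12. Between brain and cerebellum, at most 3 genes of any list were higher in brain (3 of 10 readers, 3 of 13 removal genes and 3 of 12 silenced germline genes). Genes were lower in brain only in the lists of methyl donor metabolism (3 of 12) and of silenced germline genes (2 of 12). Over all loci, 15.2% were higher and 10.7% lower in brain. Sycp1 was at 5.94 to 17.6 CPM in cerebellum and at most 0.0430 in brain, and Dazl at 2.19 to 5.12 in brain and at most 0.680 in cerebellum.

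Over the means of the 10 groups (log2 CPM), the members fell into unlike patterns. Pearson's r was 0.94 between Uhrf1 and Dnmt3l, 0.89 between Uhrf1 and Dnmt3b, 0.98 between both Dnmt3a loci and 0.92 between Tet1 and the Dnmt3a coding locus, and -0.78 between Uhrf1 and the Dnmt3a coding locus and -0.09 between Uhrf1 and Dnmt1. These values describe 10 points, of which 8 are 4 tissues in both sexes, and both genes of a pair were read in the same libraries. Of 18232 protein-coding candidates, the genes most like Uhrf1 were Tpx2 (r = 0.990), Gtse1 (0.989) and Atl3 (0.989), and those most like Dnmt3l were Dbf4 (0.981), Bub1 (0.974) and Cdca3 (0.973). The nearest to the other members were Champ1 for Dnmt1 (0.982), Tsen34 for the Dnmt3a coding locus (0.992), Mpnd for the downstream locus (0.980), E2f7 for Dnmt3b (0.981), Hs3st1 for Tet1 (0.981), Actr3 for Tet2 (0.985) and Mansc1 for Tet3 (0.986).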

How the data were processed

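RNA-seq was read in 29 libraries of 6 mouse tissues in 10 groups. The authors deposited raw counts per locus, from uniquely mapped reads over an annotation that joins Iso-seq loci with ENSEMBL genes. The submitters' processing notes name HISAT2 2.0.5, featureCounts 1.6.3, FastQC 0.11.8, MultiQC 0.9 and mm10. The libraries were made with dUTP, and whether counting used strand is not given in the sources used here. Of 55356 loci, 9905 had no counts.

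From the deposited counts, FPKM was computed here from total counts and union exon lengths. Tests used edgeR 4.0.16 (R 4.3.3) with TMM scaling, filterByExpr, 1 fit over the 10 groups, and Benjamini-Hochberg adjustment over 29911 loci at a threshold of 0.05. Shares were compared by exact permutation (scipy 1.17.1). The edgeR step was tested on simulated data. Alternatives were DESeq2 1.42.0, RLE factors, no filter, a replicate block, only the groups compared, other lengths and scalings, and each library left out. Leaving out 3 libraries together, total counts without a factor, the Dnmt3a coding locus alone and the motifs were chosen after seeing the data. Pathway genes were named where called and without overlap, at most the 2 largest changes per list and direction, and the 3 most similar genes by Pearson's r. Some genes that this rule selects are not reported here. The members and lists were chosen with earlier results of these data known. Depth sets the precision of Dnmt3l and Dnmt3b above all, and intervals and floors of 3 counts cover counting error only.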

Additional observations from a re-analysis of the deposited data

Results flagged for a closer look

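Within tissues of 5 or 6 libraries, 56 groups of values were tested for a library apart from the rest by Dixon's ratio, of which chance marks about 1 in 20, and 5 were marked. Female heart replicate 3 gave 4 of them. Its Uhrf1 level was 2.151 FPKM (others 0.3864 to 0.5609), its Tet1 level 1.477 (others 0.6933 to 0.8493), its Tet2 level 3.338 (others 1.253 to 1.84) and its log2 ratio of Uhrf1 to Dnmt1 -1.547 (others -3.531 to -3.071). The same library had the raised leukocyte, fibroblast (872.4 FPKM against 350.1 to 503.9) and cell cycle sums, whose part in these levels was not tested. The fifth was Tet2 in female colon replicate 1, at 9.213 FPKM (others 5.262 to 6.028), a library of 1825 Tet2 counts with spermatid transcripts at 9.82 FPKM, whose part in this level was not tested.

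The effects on 3 loci ran in opposite directions in the gonads against the same somatic libraries, and the difference between testis and ovary was tested directly by edgeR's quasi-likelihood test: -1.687 for the Dnmt3a coding locus, -2.35 for the Dnmt3a downstream locus and -2.63 for Tet1 on the log2 scale. For the coding locus, the rise in ovary itself was lost without any single ovary library, as given above.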

How the results depend on the processing

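No difference that passed its test changed sign under any alternative. Differences that had not passed could, as for Dnmt3b between testis and ovary (-0.2259 to 0.2896) and Dnmt3l between brain and cerebellum (-2.674 to 0.1207) without single libraries. The number of member loci lower in brain than cerebellum was 2 with RLE factors, total counts, DESeq2, the 3 libraries left out, or only the groups compared, and ran from 0 to 2 with single libraries left out. All genes called between the sexes numbered 31, with 260 by DESeq2 and 17 to 49 without single libraries, and for the interaction 5, with 160 by DESeq2, 1 by total counts, 0 without the 3 libraries and 0 to 22 without single ones. The ratio of Uhrf1 to Dnmt1 in brain differed from the rest by -2.228, or -2.126 without the 3 libraries and -2.343 to -2.053 without single ones. In cerebellum it ran from -2.198 to -1.914, and passed when any 1 brain library was left out. With TMM-scaled sizes, tau was 0.9108 for Uhrf1, 0.4221 for Dnmt1, 0.2675 and 0.3533 for the Dnmt3a coding and downstream loci, 0.5818 for Dnmt3b and 0.3311 for Tet3. Without single libraries tau of Dnmt3b ran from 0.6531 to 0.7139. The causes were not tested. Removing the filter changed no call among 112 results. Low counts limit Dnmt3l and Dnmt3b most.

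Replicate numbers did not pair the libraries: of 56 pairs with the same number, 0 had a correlation of deviations over 0.1 (range -0.2594 to 0.09313). With the replicate block, member loci lower in brain numbered 0 (Dnmt3b -0.9742, adjusted P = 0.05341) and higher in testis than ovary 1 (Dnmt3l 1.748, adjusted P = 0.211), the Dnmt3a coding locus in ovary gave 0.3113 (adjusted P = 0.08544), and all genes called were 9 for sex and 1 for the interaction.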

Other observations

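Dazl, a germline RNA-binding protein, was at 2.19 to 5.12 CPM in the 6 brain libraries and at most 0.680 in cerebellum, and Sycp1, a component of the synaptonemal complex, was at 5.94 to 17.6 CPM in cerebellum and at most 0.0430 in brain. Both belong to the 12 germline genes known for promoter methylation in the soma, and both were called between these tissues by edgeR (log2 differences of 3.30 and -9.31).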
